A study of Mus musculus with 9 samples.

Results

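Endothelial cells of brain arteries were ordered by how strongly they expressed 3 arterial genes, and the cells at both ends of that order were compared across all other genes. The cells were 116 of the 1235 in the series, all carrying the deposited label aEC. They were chosen by the summed level of Bmx, Gkn3 and Mgp in each cell, in reads scaled to a total of 1000000 per cell (CPM). The 38 cells with the highest sum are called marker-high here, the 38 with the lowest marker-low, and the 40 between them marker-mid. The series holds single cells of adult mouse brain vessels, freed by mechanical and enzymatic digestion, sorted into plates of wells and read over whole transcripts by Smart-seq2. All 3 groups come from 1 deposited sample, with no treatment and no genetic change in the labels. Strain, sex, age beyond adult and number of animals are not given in the sources used here. Cells of 1 sample are not replicates, so differences are described by their size, by exact counting intervals and by plate, and no p-value is given.

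An arterial tree passes from large arteries through arterioles into capillaries, and its endothelium changes gradually along the way. Arterial endothelium is kept in its state by Notch signalling between neighbouring cells, is coupled by connexin channels, and lies on elastic matrix beneath which smooth muscle is wrapped. Capillary endothelium of the brain carries the nutrient transporters, the lipid flippase and the carbonic anhydrase that serve exchange across the blood-brain barrier. Bmx is a cytoplasmic tyrosine kinase of arterial endothelium, Gkn3 a gastrokine found in brain arteries, and Mgp a secreted inhibitor of calcification.

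The levels of the ranking genes define the groups and are given as a description. The summed level ran from 1445 to 7815 CPM in marker-high cells (median 2314), from 33.1 to 1329 in marker-mid cells (median 510.4), and from 0 to 30.6 in marker-low cells (median 5.44). The last cell inside the marker-high group thus stood at 1445 CPM and the first outside it at 1329, while the edge of the marker-low group lay between 30.6 and 33.1 CPM. All 3 genes were read in 30 of the 38 marker-high cells, and none of them in 11 marker-low cells. Gkn3 was the largest of the 3 in 20 marker-high cells, Mgp in 14 and Bmx in 4. Over all 116 cells the ranks of the genes were related, with Spearman's rho of 0.451 for Bmx and Gkn3, 0.339 for Bmx and Mgp and 0.463 for Gkn3 and Mgp. Within the 38 marker-high cells the same values were −0.022, −0.25 and −0.068. A cut on the sum of the 3 genes itself lowers such values, and nothing is read from them. These correlations are across cells that share their libraries' preparation, and they are descriptions only.

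**Figure D1:**
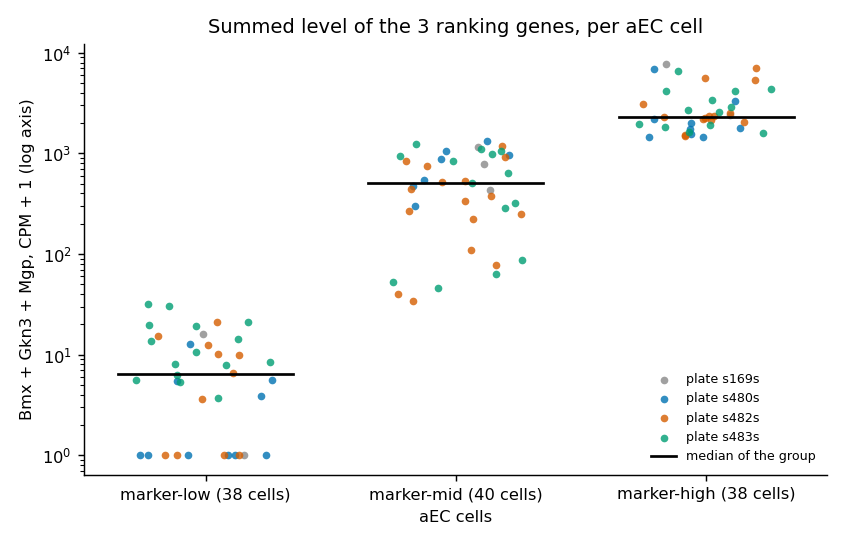
Summed CPM of Bmx, Gkn3 and Mgp plus 1 (log axis) in each of the 116 aEC cells, by group; points are cells coloured by plate and bars are medians. The groups do not overlap, because the sum defined them, and every plate has cells in each group.

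Plates are the wells' sorting plates, read from the cells' names. Plate s169s held 2 marker-high and 2 marker-low cells, s480s 9 and 10, s482s 14 and 11, and s483s 13 and 15, so values by plate are given for the last 3. Pooled values include s169s and weigh plates by their reads, so they can lie outside the range over plates. A list median can do so as well, because its middle gene can differ by plate. Marker-high cells were read more deeply, with a median of 265081 reads per cell against 218684 in marker-low cells, and with 11715244 and 8384128 reads in all. After each cell was thinned to 100000 reads, the median cell had reads in 2868.5 and 2730.0 genes. Mitochondrial genes took a median of 1.59% and 1.88% of reads. A sum of 3 reads, taken as the detection limit, is 0.256 CPM in marker-high and 0.358 CPM in marker-low cells. The 15 pan endothelial markers summed to 19978 CPM in marker-high, 20688 in marker-mid and 21486 in marker-low cells, and none of them met the size rule below in either direction. All 3 groups thus carried the defining endothelial markers at like levels. On plate s482s, 3 marker-high cells carried markers of another cell class above 10% of that class's own median level, as did 1 marker-low cell on s169s, and the main results that rest on them are given with and without them. The classes checked were smooth muscle and pericytes, fibroblasts, and microglia, and no others.

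A gene was counted as higher in one group when it was at least 2-fold higher on log2(CPM + 5) of the pooled reads, reached 50 CPM there and was read in 50% or more of the group's cells. By this size rule 301 genes were higher in marker-high cells, 11.2% of the 2685 genes that met the level and share in either group. Marker-low cells were higher in 128 genes, 4.77% of the same 2685. The marker-high genes thus made up 70.2% of all counted genes, and 60.1% when DESeq2 size factors replaced the total reads (255 genes on the marker-high side). Without the minimum share of cells they made up 51.9%, with 895 genes against 830, so this imbalance depended on that filter. On each of the 3 plates, 212 of the 301 and 99 of the 128 had the pooled direction, against 912 of all 2685. The plates make up the pools that chose these genes, so this agreement is in part built in. At least 4-fold higher were 48 and 23 genes. Marker-mid cells, which entered neither pool, lay between the ends for 215 of the 301 genes and 93 of the 128. The same held for 1059 of all 2685 (39.4%). The ends of the 301 and the 128 are at least 2-fold apart by the rule itself, so a larger share is in part built in. With each cell thinned to 100000 reads, 180 genes were higher in marker-high and 86 in marker-low cells, and 141 and 64 of these were among the 301 and the 128. Without the 4 cells that carried markers of another class the numbers were 290 and 119. Without plate s480s the marker-low number was 193.

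The largest difference in favour of marker-high cells was in Clu, which encodes clusterin, a secreted chaperone. Clu stood at 516, 413 and 866 CPM in marker-high cells on plates s480s, s482s and s483s, and at 0, 1.31 and 2.81 CPM in marker-low cells. The groups were far apart on every plate, and in marker-low cells Clu was at or near the limit of detection. Pooled, Clu reached 623 CPM in marker-high cells (exact Poisson 95% interval 609 to 637), 178 in marker-mid cells and 1.55 in marker-low cells (0.826 to 2.65), a log2 difference of 6.58. Single marker-high cells varied widely, with a median of 7.98 CPM and a highest cell of 4653 CPM. Intervals of this kind cover counting error only, since these reads carry no molecular identifiers and the spread between cells is far larger.

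Egfl8, an EGF-domain protein of endothelium, followed the same order in steadier form. Its levels were 507, 661 and 473 CPM in marker-high cells by plate and 3.50, 46.1 and 1.12 CPM in marker-low cells. The marker-high levels were alike across plates, and the single raised marker-low level came from s482s. The pooled log2 difference was 4.90, with 279 CPM in marker-mid cells and a median of 384 CPM over single marker-high cells. Atp2a3, a calcium pump of the endoplasmic reticulum, stood at 216 against 0.835 CPM (log2 difference 5.25, plates 4.34 to 5.94). The median marker-high cell held 2.27 CPM of Atp2a3 and the highest 5135 CPM, and ranking without Bmx gave a difference of 2.39. The cells labelled PC and vSMC in the series stood above the aEC cells for this gene, at 654 and 561 CPM. Mecom, a zinc-finger transcription factor of arterial endothelium, stood at 285 against 18.2 CPM (3.64, plates 3.01 to 5.59), and with all cells split at the median score it was short of 2-fold (0.78).

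The other genes that led the marker-high side have varied roles. Pdia6, a protein disulfide isomerase that folds secreted proteins, stood at 293 against 33.5 CPM (log2 difference 2.95). Ncln, a subunit of an endoplasmic reticulum complex, stood at 95.6 against 1.79 CPM (3.89), and Ptdss1, a phosphatidylserine synthase, at 168.8 against 19.8 CPM (2.81). For these 3 genes the capillary cells of the series, labelled capilEC, were nearer to the marker-high level, at 234, 54.99 and 129 CPM. Vwf, the von Willebrand factor of clotting, stood at 326 against 42.3 CPM (2.81) and at 237 CPM in capilEC, and Dbnl, an actin-binding adaptor, at 168 against 20.2 CPM (2.78) and 108 CPM in capilEC. In these 5 genes the marker-low cells stood apart from both other kinds of cell. Ncln held its place in 14 of 24 alternative settings, and it was read in 50% of marker-high cells, the least the rule allows.

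**Figure D2:**
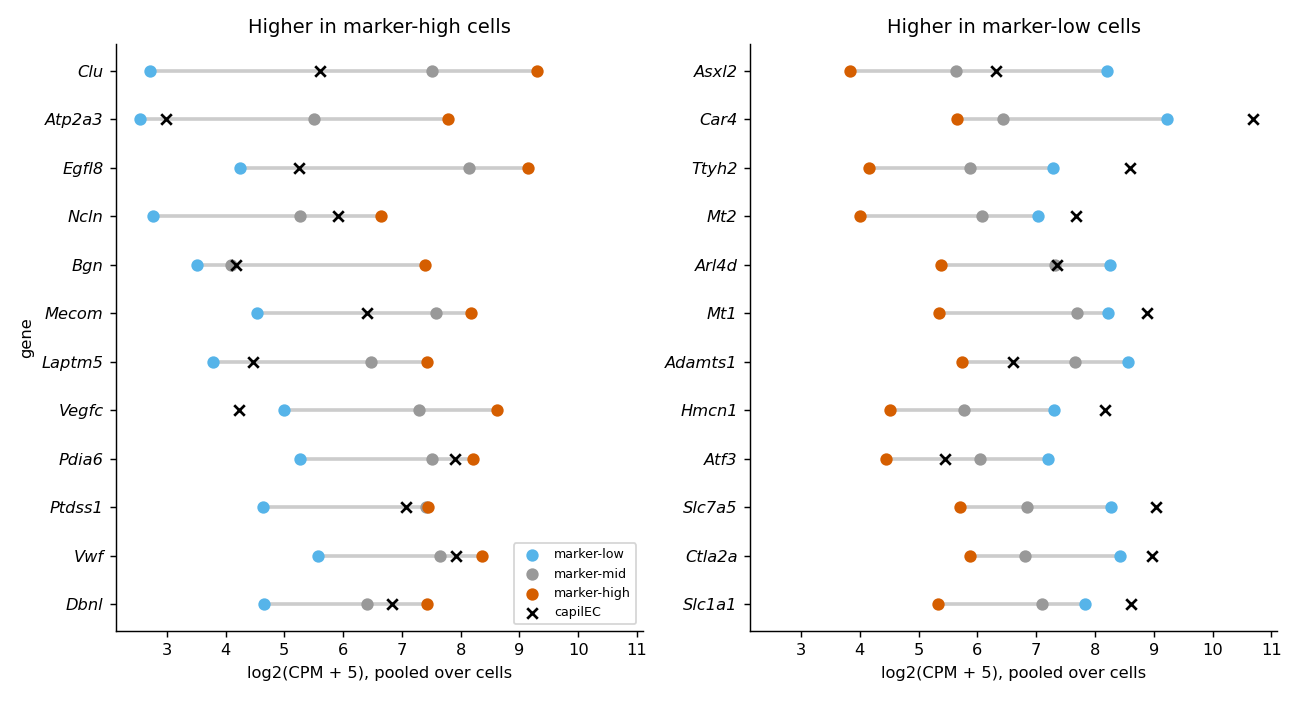
Pooled log2(CPM + 5) of the 12 leading genes in each direction in marker-low, marker-mid and marker-high aEC cells, with capilEC as a cross; grey bars join both ends. Marker-mid cells lie between the ends for all 24 genes, and capilEC lies nearer the marker-low end for 6 of the 12 genes on the left and 10 of the 12 on the right.

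Pooled, genes known for arterial identity lay on the marker-high side. Of 22 listed genes, 21 were measured, that is above 5 CPM in either group, and the pooled level of each of the 21 was higher in marker-high cells, of 12 on every plate, with a median log2 difference of 1.56 (1.302 to 1.73 over plates) against 0.10 over all 11360 measured genes. Of these, 4 counted as measured through the marker-high group only. The size rule was met by 10 of the 16 members at its minimum level and share, against 11.2% of all such genes, and by 0 in the other direction, against 4.77%. Summed over the list, the level was 9233 CPM in marker-high, 7061 in marker-mid and 4407 in marker-low cells, with 2874 CPM in capilEC. By cell it ran from 3741 to 17801 CPM in marker-high cells (median 8809) and from 19.96 to 11042 in marker-low cells (median 3903). The groups overlapped, and 37 of the 38 marker-high cells lay above the median marker-low cell. The summed list and the ranking score had a Spearman's rho of 0.622 over the 116 cells and of 0.699, 0.512 and 0.631 within plates.

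Among these genes Stmn2, a microtubule-destabilising protein, stood at 749, 727 and 968 CPM by plate in marker-high cells and at 0.437, 359.5 and 37.9 CPM in marker-low cells. The marker-high level was steady, while the marker-low level differed widely between plates, so the pooled log2 difference of 2.74 averages 1.01 on s482s and 7.12 on s480s. Vegfc, the growth factor for the receptor VEGFR3, stood at 428, 385 and 394 CPM in marker-high and at 1.31, 2.61 and 60.1 CPM in marker-low cells (pooled log2 difference 3.63). Only the marker-low cells of s483s carried an appreciable amount. Flt4, which encodes VEGFR3, had the same direction, at 114 against 24.2 CPM (2.02, plates 2.11 to 2.97). So did the co-receptor gene Nrp1, at 204 against 90.3 CPM (1.13). Without the 4 cells with markers of another class Nrp1 no longer met the rule (0.98). Both Flt4 and Nrp1 stood higher in capilEC than in marker-high cells, at 256 CPM for Flt4 and 361 CPM for Nrp1. The related neuropilin gene Nrp2 had the opposite sign, at 0.341 against 53.1 CPM (−3.44, plates −4.68 to −0.03). Nrp2 was read in 21.1% of marker-low cells, too few for the rule. Edn3, an endothelin, stood at 626 against 269 CPM (1.20, plates 1.21 to 1.73).

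Other genes of the same list did not meet the rule. Alpl, tissue-nonspecific alkaline phosphatase, stood at 1603, 1357 and 1225 CPM in marker-high, marker-mid and marker-low cells and at 271 CPM in capilEC. Sox17, a transcription factor of arterial fate, stood at 842, 745 and 628 CPM and at 360.5 CPM in capilEC. Both stayed under the 2-fold mark, with log2 differences of 0.39 and 0.42, and both were lower in the marker-high cells of plate s482s. In marker-low cells they were still above their capillary levels.

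Notch signalling runs from a ligand on one cell to a receptor on its neighbour and switches on Hey and Hes genes. Of its genes, 3 ligands, a target and a modifier of receptors met the rule. Dll4 stood at 198 against 34.1 CPM (log2 difference 2.38), Jag1 at 70.2 against 17.8 (1.72) and Jag2 at 198 against 91.1 CPM (1.08). Only Jag1 had this direction on each plate; Dll4 stood at 74.8 against 118 CPM on s480s, and Jag2 at 121 against 135 CPM on s482s. The target gene Hey1 stood at 332, 273 and 109 CPM along the order (1.56, plates 0.58 to 2.72). Mfng, a glycosyltransferase that tunes Notch receptors, stood at 178 against 69.8 CPM (1.29) with the opposite direction on s482s. The receptor gene Notch1 stood at 814 against 528 CPM (0.62) and the target Hes1 at 182 against 167 CPM (0.12), both short of 2-fold. In all, 17 Notch genes were measured and 8 were at the minimum level and share. Of these 8, 5 met the rule on the marker-high side and 0 on the other, against 11.2% and 4.77% of all such genes. Dll4, Jag1, Jag2 and Hey1 are also among the arterial genes past the rule, so the counts of these lists are not separate. The 17 had a median of 1.08 (0.06 to 1.46 over plates) and of 0.71 without the 4 cells with markers of another class. Of the 17, 3 counted as measured through the marker-high group only, which pulls the median up.

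Connexins form the channels that couple endothelial cells along the arterial wall. Gja4, or connexin 37, stood at 441, 237 and 173 CPM by plate in marker-high cells and at 1.75, 88.4 and 58.7 CPM in marker-low cells. It was higher in marker-high cells on each plate, by the widest margin on s480s, with a pooled log2 difference of 2.29. Gja1, or connexin 43, which is also in the astrocyte list, stood at 88.4 against 20.4 CPM (1.88), but at 44.0 against 62.9 CPM on s480s. Gja5, or connexin 40, stood at 25.2 against 0.119 CPM, and it was read in 21.1% of marker-high cells, too few for the rule. Over the 5 measured connexins the pooled median of 2.29 lay outside the medians by plate, 1.15 to 1.48. Of the 5, 2 counted as measured through the marker-high group only. Both Gja4 and Gja5 are also members of the arterial list.

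Several genes of the elastic wall were higher in marker-high cells, some of them through few cells. The elastic fibre gene Eln stood at 131, 55.8 and 501 CPM by plate in marker-high cells and at 0.437, 0.435 and 0.843 CPM in marker-low cells. Fbln5, which guides elastic fibre assembly, stood at 188, 285 and 303 CPM against 0, 0 and 0.281 CPM. Both were near 0 in marker-low cells on every plate, and their marker-high levels rested on the 36.8% and 26.3% of cells with a read. Cytl1, a secreted cytokine-like protein, was read in 15.8% of marker-high cells, at 168.8 CPM pooled and 98.8 CPM without the 4 cells with markers of another class, and in no marker-low cell, where the detection limit was 0.358 CPM. Ltbp4, which binds latent TGF-beta to elastic fibres, was read in nearly every cell and stood at 1811, 1662 and 1279 CPM against 795, 850.0 and 617 CPM. Its log2 difference of 1.10 varied little by plate, from 0.96 to 1.18. Fbln2, a matrix glycoprotein, stood at 321 against 116 CPM (1.43), with the opposite order on s480s. Bgn, the proteoglycan biglycan, stood at 164 against 6.44 CPM (3.89) and at 94.7 against 6.52 CPM without the 4 cells with markers of another class, where it no longer met the share of cells. Of 14 measured genes of this list, 7 counted as measured through the marker-high group only, so nothing is read from the median (1.49, and 0.71 without the 4 cells and each gene's top cell). The 4 members at the minimum level and share, Clu, Ltbp4, Fbln2 and Bgn, all met the rule (11.2% of all such genes did). Mfap2, a microfibril protein gene, and Col8a1, a collagen gene, had the opposite sign, at 8.54 against 36.7 CPM (−1.62) and 0.512 against 6.202 CPM (−1.02), and Efemp2 was even at 78.9 and 79.1 CPM.

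**Figure D3:**
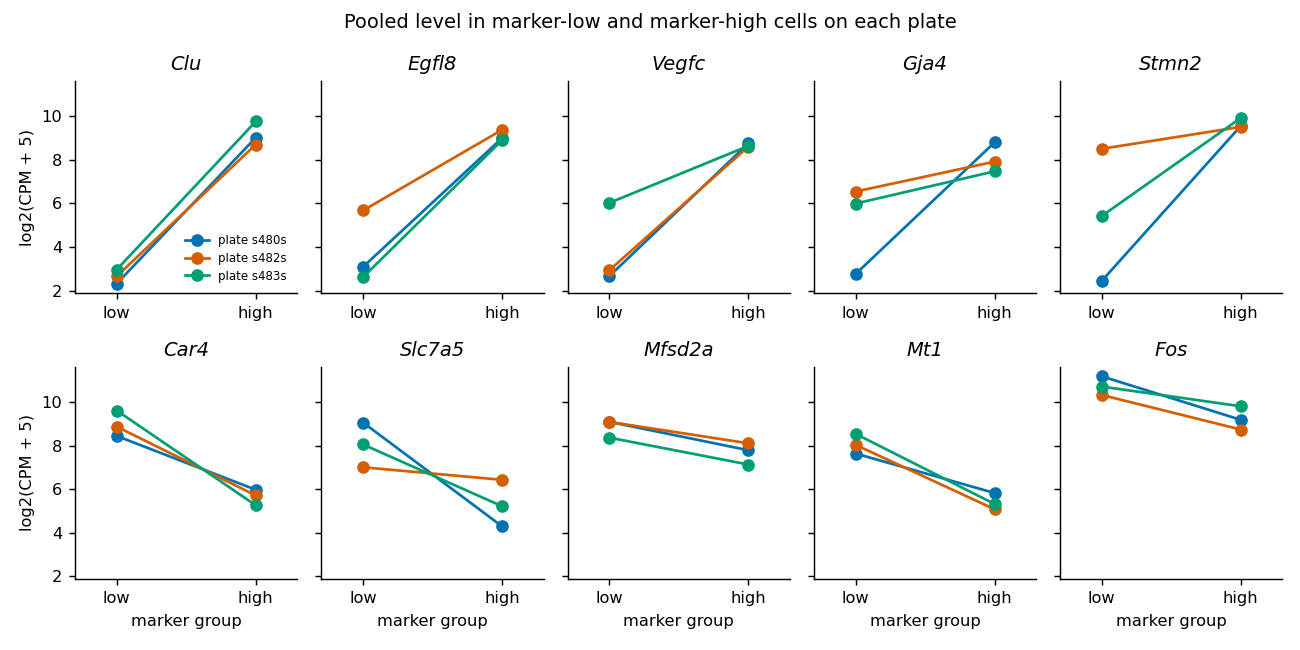
Pooled log2(CPM + 5) in marker-low and marker-high cells on plates s480s, s482s and s483s for 5 genes of the marker-high side and 5 of the marker-low side; each line is a plate. All 30 lines slope the same way within their gene, and the marker-low levels of Gja4 and Stmn2 spread most between plates.

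Genes of brain capillaries were higher in marker-low cells. Car4, the carbonic anhydrase on the capillary surface, stood at 57.6, 47.2 and 33.2 CPM by plate in marker-high cells and at 342, 461 and 774 CPM in marker-low cells. The groups were apart on each plate. Pooled, Car4 stood at 45.6 CPM (41.8 to 49.6), 81.6 CPM in marker-mid and 592 CPM in marker-low cells (575 to 608), a log2 difference of −3.56, and capilEC stood higher still at 1646 CPM. The median marker-high cell held 19.2 CPM and the median marker-low cell 437 CPM. Ttyh2, a chloride channel family member, stood at 12.7 against 150.3 CPM (−3.13), and Hmcn1, the matrix protein hemicentin 1, at 17.9 against 152 CPM (−2.78). Rgcc, a regulator of the cell cycle, stood at 159 against 529 CPM (−1.70) and Ivns1abp, an actin-binding protein, at 24.8 against 154 CPM (−2.41). Of 22 capillary genes, all measured, 8 met the rule on the marker-low side, against 4.77% of all genes at the minimum, and 0 on the other, and 19 were lower in marker-high cells. All of the 8 but Rgcc and Mfsd2a were under 50 CPM in marker-high cells, and so reached the minimum through the marker-low group only. The median of the 22 was −0.85 (−1.15 to −0.67 over plates). Summed, the list stood at 11587, 15779 and 16705 CPM along the order and at 22888 CPM in capilEC. By cell the groups overlapped, with 33 of 38 marker-high cells below the median marker-low cell, and the list had a rho of −0.462 with the score over 116 cells (−0.477 to −0.407 within plates).

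Transporters of the blood-brain barrier included genes that met the rule and genes that did not. The large amino acid transporter gene Slc7a5 stood at 14.6, 80.9 and 32.1 CPM by plate in marker-high and at 527, 123 and 259.8 CPM in marker-low cells. It was higher in marker-low cells on each plate, though by little on s482s, and the pooled log2 difference was −2.57. Mfsd2a, the lipid flippase that limits transcytosis, stood at 216, 270.0 and 135 CPM against 539, 538 and 324 CPM (−1.04). That difference was steady between plates, though the median cell held only 11.2 and 17.6 CPM, far below both pooled levels. For Slc7a5 the medians were 4.25 and 23.5 CPM, so a smaller number of cells carried most of the reads. The glutamate transporter gene Slc1a1 stood at 35.3 against 221 CPM (−2.49), the organic anion transporter gene Slco2b1 at 98.9 against 426 CPM (−2.05), and the glutamine transporter gene Slc38a5 at 7.00 against 156 CPM (−3.75). Slc38a5 had no such difference on s480s, at 6.10 against 4.81 CPM. Slc2a1, which carries glucose, was at 4057 and 3304 CPM (0.30) and the efflux pump gene Abcb1a at 743 against 953 CPM (−0.36). Slc16a1, the lactate transporter gene, stood at 177 and 212 CPM in both ends of the order and at 1048 CPM in capilEC. Of 24 barrier transporter genes at the minimum, 5 met the rule on the marker-low side, against 4.77% of all such genes, and 0 on the other (median over 25 genes −0.27, plates −0.64 to −0.32). Slc7a5 and Mfsd2a are also among the capillary genes past the rule, so the counts of these lists are not separate. Apcdd1 and Nkd1, inhibitors of the Wnt pathway that its activity also induces, stood at 25.8 against 103 CPM (−1.82) and 44.4 against 235 CPM (−2.28).

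Further genes that led the marker-low side belong to no single pathway. Asxl2, a chromatin protein, had the largest difference, at 9.30 against 289 CPM (log2 difference −4.36, plates −4.49 to −3.74). Its median marker-low cell held 4.89 CPM and the highest 2037 CPM, so the pooled level was far above that of the median cell. Arl4d, a small GTPase, stood at 36.7 against 299 CPM (−2.87), Adamts1, a secreted metalloprotease, at 48.5 against 374 CPM (−2.83), and Ctla2a, a cysteine protease inhibitor, at 53.5 against 339.7 CPM (−2.56, plates −2.58 to −2.40). The difference in Ctla2a varied least between plates among these 4.

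The metallothionein genes Mt1 and Mt2, neighbours whose products bind zinc and copper, were higher together in marker-low cells. The metal-responsive factor MTF1 acts on them through metal response elements, and the 250 bases before each RefSeq start are shown because both genes lay on the same side. The core of the element was searched on both strands as TGCACNC and TGCGCNC, where N is any base, and matches are in capitals. Mt1 (GRCm38.p6, chr8:94178839-94179088, plus strand) and Mt2 (chr8:94172368-94172617, plus strand) read as follows, 5′ to 3′, from RefSeq.
Mt1: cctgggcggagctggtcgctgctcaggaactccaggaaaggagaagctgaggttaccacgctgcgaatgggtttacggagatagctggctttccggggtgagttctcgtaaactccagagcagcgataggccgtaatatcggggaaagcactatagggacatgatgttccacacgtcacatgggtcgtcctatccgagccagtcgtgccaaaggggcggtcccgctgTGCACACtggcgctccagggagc
Mt2: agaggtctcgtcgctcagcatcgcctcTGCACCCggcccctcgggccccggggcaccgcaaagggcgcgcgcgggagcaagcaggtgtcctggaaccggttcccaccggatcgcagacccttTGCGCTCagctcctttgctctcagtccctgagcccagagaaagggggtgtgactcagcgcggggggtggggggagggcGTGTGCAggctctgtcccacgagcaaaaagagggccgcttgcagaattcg
The search found 1 match before Mt1 and 3 before Mt2. Bases outside these 250, including those past each start, were not searched, so the counts do not compare whole promoters. A match of either form occurred in 21.4% of the 32851 RefSeq promoter windows of this length, and 3 or more in 1.26%. A match is a description of the letters, not evidence of binding.

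Mt1 stood at 51.5, 28.7 and 34.8 CPM by plate in marker-high cells and at 194, 257 and 367 CPM in marker-low cells. Mt2 stood at 33.2, 3.95 and 3.32 CPM against 62.5, 104 and 187 CPM. Both were higher in marker-low cells on each plate, with the narrowest margin for Mt2 on s480s. The pooled log2 differences were −2.86 and −3.03, marker-mid cells stood between at 203 and 62.3 CPM, and capilEC stood above marker-low cells at 469 and 199 CPM. In single cells Mt1 had a median of 10.1 CPM in marker-high and 215 CPM in marker-low cells.

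Immediate early genes, which respond within minutes to stimulation and to tissue dissociation, were also higher in marker-low cells. Fos stood at 575, 421 and 889 CPM by plate in marker-high and at 2315, 1275 and 1669 CPM in marker-low cells. Junb stood at 332, 341 and 362 CPM against 1055, 882 and 939 CPM. Each plate had the same order for both genes, with pooled log2 differences of −1.54 and −1.29. Nr4a1, a nuclear receptor of the same response, was nearly equal on s483s, at 299 against 319 CPM, and stood at 252 against 853 CPM pooled (−1.74). The stress factor gene Atf3 stood at 16.8 against 141 CPM (−2.74, plates −3.13 to −2.40). Of 21 measured genes of the dissociation response list, 15 were at the minimum. Of these, 7 met the rule on the marker-low side, against 4.77% of all such genes, and 0 on the other. Of the 21, 19 were lower in marker-high cells (median −1.11, plates −1.36 to −0.59).

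This list did not follow the capillary order. It summed to 5507, 7573 and 12118 CPM along the order, but to 4403 CPM in capilEC, and all 7 genes that met the rule stood lower in capilEC than in marker-low cells. The median cell held 3619 CPM in marker-high and 6584 CPM in marker-low cells, and the highest held 36253 and 40636 CPM. The groups overlapped widely, and 11 of 38 marker-high cells lay above the median marker-low cell. Over the 116 cells the list had a rho of −0.15 with the score, −0.24 with the capillary list and −0.21 with the arterial list. Its part in the other differences between the ends was not tested.

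**Figure D4:**
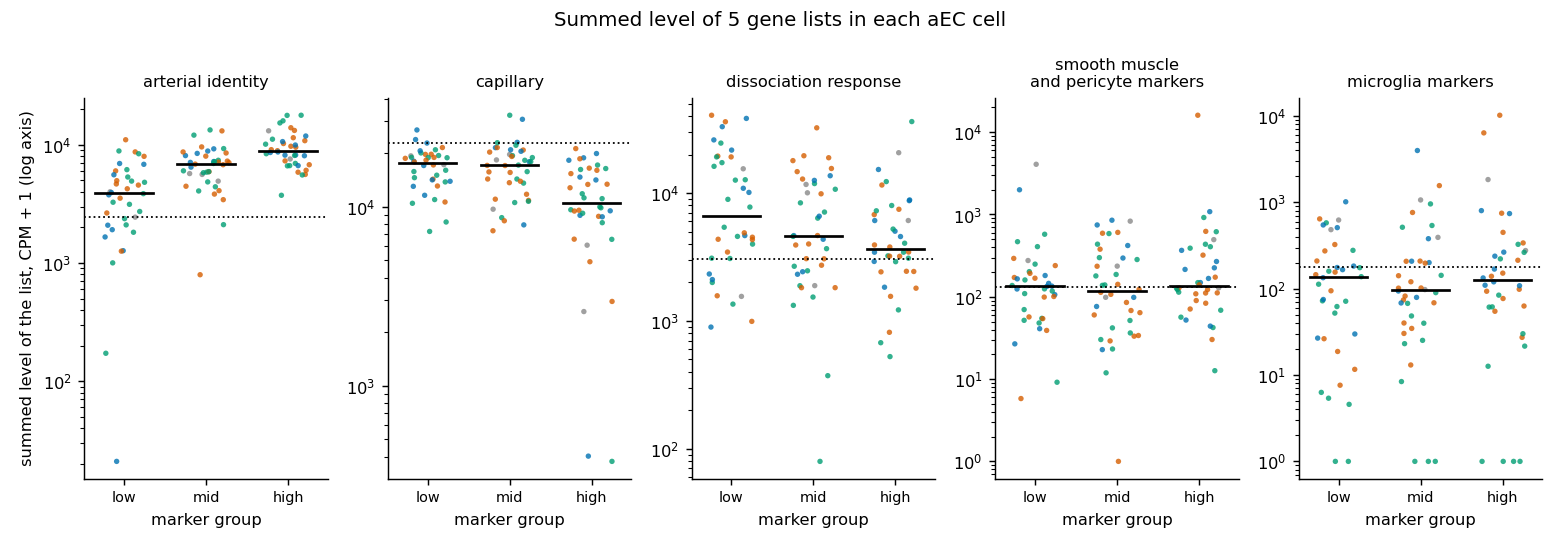
Summed CPM plus 1 (log axis) of 5 gene lists in each aEC cell by marker group; points are cells coloured by plate as in the plot of the ranking score, bars are group medians and dotted lines the capilEC median. Arterial medians step up from marker-low to marker-high. Capillary medians are alike in marker-low and marker-mid cells (17441 and 17010 CPM) and lower in marker-high cells (10512 CPM). The smooth muscle and microglia sums have like medians and a few very high cells.

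Several other lists had medians near 0. Tight and adherens junction genes had a median log2 difference of −0.08 over 16 genes, with 1 past the rule, F11r, the junctional adhesion molecule A gene, at 811 against 354 CPM (1.19). Cldn5, the main claudin of the barrier, stood at 3744 and 4350.4 CPM (−0.22). Genes of interferon response and class I antigen presentation had a median of 0.02 over 16 genes and 0 past the rule. Basement membrane genes (−0.05 over 14), shear response and vasoactive genes (0.09 over 17) and axon guidance genes (0.17 over 18) had pooled medians within 0.2 of 0, with at most 1 gene past the rule in each direction. The shear median was 0.87 without plate s483s. Caveolae and transcytosis genes had a median of 0.25 over 16 genes. Among them Prkcdbp, a caveolar coat protein gene also known as Cavin3, stood at 407 against 110.1 CPM (1.84), and Cltc, the clathrin heavy chain gene, at 196 against 420.4 CPM (−1.08).

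Single members of further lists met the rule, beside 11.2% and 4.77% of all genes at the minimum level and share. Among members at that minimum, 2 of 16 transcription factor, 2 of 9 TGF-beta and BMP and 2 of 13 Wnt genes passed on the marker-high side. So did 3 of 9 VEGF and 3 of 24 actin genes. On the marker-low side 2 of the 16 and 2 of the 13 passed, and 0 in the other lists named here. Nothing is read from shares of so few genes. Among 23 measured endothelial transcription factor genes (median −0.26), Epas1, the hypoxia-inducible factor 2 alpha gene, stood at 2883, 2046 and 1872 CPM by plate in marker-high and 1509.9, 833 and 721 CPM in marker-low cells (1.09). It was higher in marker-high cells on each plate. Mecom, given above, went the same way, while Ets1, an endothelial ETS factor, stood at 127 against 311 CPM (−1.26) and Foxp1, a forkhead factor, at 266 against 556 CPM (−1.05), with no difference on s480s (0.03). Of 20 TGF-beta and BMP genes (median 0.34), the target Id2 stood at 225 against 86.5 CPM (1.33) and Skil, a repressor of SMADs, at 71.3 against 29.6 CPM (1.14). In the Wnt list (median −0.17 over 20 genes) the co-receptor gene Lrp5 stood at 188 against 70.1 CPM (1.36) and Reck, part of the Wnt7 receptor complex, at 170.1 against 58.7 CPM (1.46, and −0.08 on s483s), on the side opposite to Apcdd1 and Nkd1. Of 14 VEGF and angiopoietin genes, 3 met the rule on the marker-high side, Vegfc, Flt4 and Nrp1 (list median 0.11, plates 0.15 to 1.08). The median was 0.81 without plate s483s. Vegfc and Nrp1 belong to the arterial list as well. Of 27 actin and contractile genes (median 0.28) 3 met the rule on the marker-high side. Thbd, the anticoagulant thrombomodulin, stood at 292 against 673 CPM (−1.19).

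**Figure D5:**
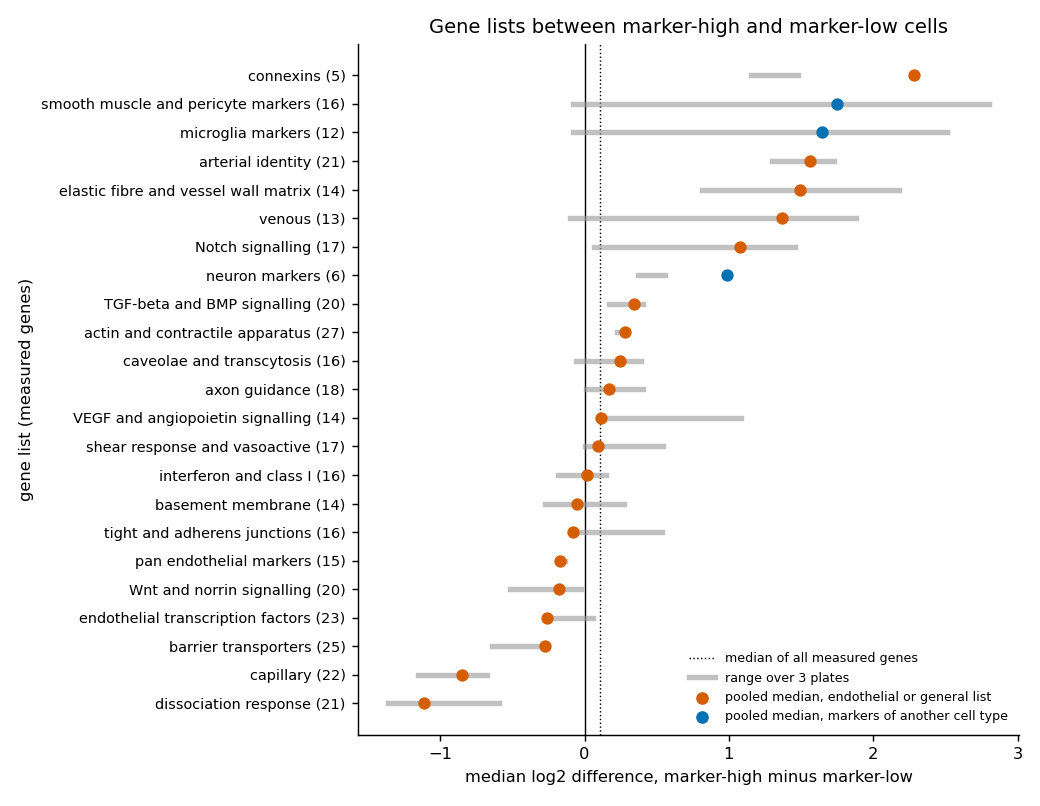
Median log2 difference, marker-high minus marker-low, of each gene list with at least 5 measured genes (number in brackets); points are pooled medians, grey bars the range of the medians on 3 plates, and the dotted line the median of all measured genes. The arterial list stands at 1.56 and the capillary list at −0.85, and the smooth muscle and microglia lists span 0 between plates. Pooled medians include plate s169s, and they can lie outside the grey bars, as for connexins, because a list's middle gene can differ by plate.

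Summed markers of smooth muscle and microglia were higher in marker-high cells, through a few cells. The smooth muscle and pericyte list summed to 887, 194 and 271 CPM along the order, yet the median cell held 133, 117 and 133 CPM. A single marker-high cell of plate s482s held 16053 CPM and the next 1081. All 16 measured genes but 1 were higher in marker-high cells (median 1.75, plates −0.08 to 2.80), and 3 met the rule, Acta2, Myl9 and Vtn. Of the 16, 9 counted as measured through the marker-high group only. Without the 4 cells the list's median was −0.05, and Acta2, the smooth muscle actin gene, stood at 47.5 against 26.6 CPM. Vtn, the vitronectin gene, stood at 92.6 against 20.6 CPM with those cells and at 15.3 against 19.9 CPM without them. Myl9, a myosin light chain gene, still met the rule, at 62.3 against 16.9 CPM. So did Mylk, the myosin light chain kinase gene, at 189.7 against 29.6 CPM (2.49). With each gene's top cell left out as well, 0 genes of the smooth muscle list met the rule on the marker-high side, Myl9 included.

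The microglia list summed to 588, 235 and 177 CPM, with medians of 126, 94.9 and 135 CPM per cell and 2 marker-high cells of s482s at 10218 and 6383 CPM. Its 12 genes were all higher in marker-high cells and 5 met the rule, among them Ctss, C1qa, C1qb and C1qc, and without the 4 cells 0 of these 5 did and the median was −0.03. The 4 named genes were then slightly lower in marker-high cells, with log2 differences of −0.40 to −0.03. Hey2, of the arterial list, likewise rested on these cells, at 15.0 CPM with them and 0 without. Laptm5, a lysosomal membrane protein gene of blood-derived cells and microglia (3859 CPM in the MG cells of the series), was among the 12 leading marker-high genes at 167 against 8.83 CPM, and stood at 114 against 8.82 CPM (3.10) without those cells. It was higher on each plate, by 3.31 to 3.76 on the log2 scale. The median cell held only 11.2 CPM of Laptm5 in marker-high and 6.75 CPM in marker-low cells, and the highest marker-high cell 2047 CPM. A smaller number of cells thus carried most of its reads, and its rho with the score was 0.176. The venous list, 13 measured genes with 2 past the rule on the marker-high side (among them Vwf) and 1 on the other (Slc38a5), had a median of 1.37 (−0.10 to 1.88 over plates), of 0.26 without the 4 cells, and of −0.15 without each gene's top cell. Of the 13, 5 counted as measured through the marker-high group only and 2 through the marker-low group only. The arterial and capillary lists had medians of 1.38 and −0.74 without the 4 cells. Of 10 fibroblast markers 2 were measured, and 4 were at 0 in marker-high cells. Of 10 astrocyte markers 3 were measured, with Gja1 past the rule. The astrocyte list summed to 198, 114 and 31.5 CPM along the order, with medians of 16.1, 10.2 and 8.27 CPM per cell. By plate it stood at 139, 214 and 243 CPM in marker-high and at 82.2, 13.5 and 12.1 CPM in marker-low cells. Astrocyte markers were not among those used to leave out the 4 cells, so values without them do not address this list. Of 10 neuron markers 6 were measured, with 0 past the rule and a median of 0.99. Of these 6, 5 counted as measured through the marker-high group only, so nothing is read from that median. No blood cell marker reached 5 CPM. The part of these cells in the other differences was not tested beyond the values given.

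The capilEC cells of the series, which the ranking did not use, give a reference for both ends of the order. Of the 787 capilEC cells, 662 (84.1%) had a summed Bmx, Gkn3 and Mgp level within the marker-low range and 14 reached the marker-high range. That is a description of the ranking genes and is not particular to capillaries, since 93.4% of the cells labelled MG and 62.2% of those labelled vEC lay in the marker-low range as well. For the 10 arterial genes past the rule, capilEC was nearer the marker-low level in 8, and for the 8 capillary genes in all 8, of which 7 stood higher still in capilEC. Of the 10 arterial genes, 6 stood lower still in capilEC and 4 stood above the marker-low level. Among those 4 were Dll4, at 149 against 34.1 CPM, and Nrp1, at 361 against 90.3 CPM. Summed over the lists, marker-low cells lay between marker-high cells and capilEC for both the arterial and the capillary genes. The same did not hold for all genes past the rule. Of the 301 marker-high genes, capilEC was nearer the marker-low level in 101 (33.6%), and of the 128 marker-low genes in 77 (60.2%), against 48.2% of all 2685 genes. The low end thus stood nearer to capillary cells in most of the listed arterial and capillary genes past the rule. Those lists were written with earlier results of these data known. In most of the 301 genes capilEC was nearer the marker-high level.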

How the data were processed

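Raw read counts per gene and cell (46517 gene rows, 1235 cells) were deposited by the authors, and a second table names the type of every cell, by means not given in the sources used here. The tools listed, per the submitters' processing notes, are featureCounts, Subread 1.4.6-p5 and SAMtools 1.16.1. Those notes name GRCm38 as well as GRCm39, without a role for either. The members and gene lists were chosen with earlier results of these data known.

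Cells labelled aEC were ranked by the summed CPM of Bmx, Gkn3 and Mgp, ties by column order. Counts of each group were summed and scaled to CPM over all genes, and compared as log2(CPM + 5). Each pooled level has an exact Poisson 95% interval. The 3 ranking genes were left out of every count of genes. Named are the 12 genes with the largest difference in each direction among those that met the size rule and had the same direction on every plate with at least 5 cells of each group (mitochondrial, ribosomal protein, predicted genes and pseudogenes aside), and, from each list, genes that met the rule and up to 4 with the largest differences, of which the text gives a part, since some are not reported here; Alpl, Sox17, Notch1, Hes1, Cldn5, Slc2a1, Slc16a1 and Abcb1a were added after their values were seen. A list gene counted as measured above 5 CPM in either group. Members that did so through a single group pull a list median toward that group. The minimum of the size rule can likewise be met through 1 group, which builds in part of a share past it. Lists can share members, so their counts are not independent. Setting levels of 0 at the detection limit moved no list median. No doublet caller was run. Cells above 10% of the median marker level of smooth muscle and pericytes, fibroblasts or microglia were left out as an alternative. Identical counts were found in 0 aEC cells. The alternatives covered scaling (edgeR 4.0.16, DESeq2 1.42.0), pseudocount, filters, thinning, the ranking score and single plates. The size rule was run on simulated counts with 4-fold changes and a milder spread between cells than in these data, which only checks the calculation. Python 3.11.15, numpy 2.4.6, scipy 1.17.1 and R 4.3.3 were used.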

Additional observations from a re-analysis of the deposited data

How the results depend on the processing

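The count of genes higher in marker-high cells was 301 and that of genes higher in marker-low cells 128. Without a minimum share of cells they were 895 and 830, with a 4-fold rule 48 and 23, with the cells split at the median score 131 and 62, and with each cell thinned to 100000 reads 180 in marker-high cells. Without plate s480s 193 genes were higher in marker-low cells. Under the other settings both counts stayed within 1.5 times, and TMM factors gave 265 and 159. The score without Bmx, Gkn3 or Mgp kept 155, 182 and 196 of the 301 genes. No value of the 12 leading genes in each direction changed sign: over 24 alternatives each, 514 values moved by less than the spread between plates and 62 by more, and Ncln, Bgn and Vegfc met the rule in 14, 16 and 18 of them. Among list genes, Vtn, Ctss, C1qa, C1qb, C1qc and Hey2 changed sign without the cells that carried markers of another class. Over 21 alternatives list medians ran from 1.02 to 1.86 for the arterial, −1.03 to −0.50 for the capillary, −1.28 to −0.52 for the dissociation, −0.05 to 2.66 for the smooth muscle and −0.03 to 1.96 for the microglia list. No paired analysis was possible because the labels name no replicates; both groups were compared within plates, as descriptions. Depth limits genes of few reads, and 38 cells a group limit any statement on single genes; causes of these shifts were not tested.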
